A study of Mus musculus with 6 samples.

Results

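Mitochondrial ribosomal protein genes were taken as the genes whose symbol in the platform annotation begins with Mrpl or Mrps followed by a digit. These symbols marked 127 of 22690 probe sets and 74 of 12393 genes, of which 47 are named for the large subunit (Mrpl) and 27 for the small subunit (Mrps). Each gene was read from the probe set with the highest mean signal over the 6 arrays. The study compared mouse multiple myeloma cells, labelled as malignant plasma cells of bone marrow, with and without the growth factor IGF-1 on 1-colour Affymetrix expression arrays. The 3 control arrays hold cells kept 12 h in serum-free medium without IGF-1, and the 3 IGF-1 arrays hold cells kept for the same time in that medium with 100 ng/ml IGF-1, so serum withdrawal is common to both groups. The labels name neither a cell line nor a separate culture or animal for each replicate, so a p-value here sets the difference against the scatter of these 6 samples only, and that scatter may be technical.

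The mitochondrial ribosome translates the few messenger RNAs of mitochondrial DNA, which encode core subunits of the respiratory chain and of ATP synthase. All of its proteins are encoded in the nucleus, made on cytosolic ribosomes and imported, while its ribosomal RNAs come from mitochondrial DNA. The small subunit holds the messenger RNA and the decoding centre, and the large subunit joins the amino acids and carries the exit tunnel through which the chain leaves towards the inner membrane.

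The arrays had a common trimmed mean of 150.1 signal units and medians of 49.96 to 55.4, and log2 signals correlated at 0.978 to 0.984 within groups and 0.956 to 0.965 between them (a description across probe sets, which are not independent). All 9 plasma cell markers lay above the filter on dim probe sets, with summed signals of 18100 to 19166 in the control arrays and 17201 to 17904 in the IGF-1 arrays. All 10 neutrophil markers and 8 of 9 macrophage and monocyte markers did so too, whereas 6 of 7 T and NK cell markers (Cd3e, Cd3d, Cd3g, Cd4, Cd8a and Gzma) were below it, as were 2 of 5 erythroid markers (Hba-a1 and Klf1). Summed signals of the neutrophil markers were 25293 to 30228 in the control arrays and 23417 to 26106 in the IGF-1 arrays, and those of the macrophage markers 7887 to 9579 and 7216 to 8766. Those of the erythroid markers were 319 to 475 and 394 to 473, and those of the T and NK cell markers 208 to 273 and 184 to 219. Of the markers tested, 2 of 9 plasma cell, 2 of 10 neutrophil and 3 of 8 macrophage genes fell, against 8.05% of all genes tested. Rises were called in 1 of 8 macrophage and 1 of 3 erythroid genes, against 7.05% of all genes. With the arrays scaled to their hybridization controls, 2 plasma cell genes rose and 0 fell, where 22.8% of all genes rose. On that scale 0 neutrophil genes passed, and of the macrophage genes 1 rose and 1 fell. Which markers were called thus depended on the scaling. The part of these cells in the results below was not tested. In such bulk samples, fewer cells of a type and less RNA per cell cannot be told apart.

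Of the 74 genes, 73 passed the filter (mean signal above 53.61) and were tested, and 3 of them rose with IGF-1, namely Mrps14, Mrpl17 and Mrpl22, while 0 fell. The rises were modest, from 1.23-fold to 1.38-fold. The limma test ran over 11313 probe sets, with Benjamini-Hochberg adjusted p under 0.05 as the call. The 3 called genes are 4.11% of the members tested, against 15.1% of the 6895 genes tested in all, of which 7.05% rose and 8.05% fell. At an unadjusted p under 0.05 the count was 14 of 73 members (19.2%) and 2101 genes in all (30.5%). Every adjusted p of a gene given here is from that limma test, and differences are IGF-1 minus control in log2(signal + 15.57), which understates the fold of dim probe sets.

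Mrps14 encodes a protein of the small subunit head. Its brightest probe set (NCBI gene 64659, chromosome 1) gave 734, 751 and 627 signal units in the control arrays and 961, 972 and 994 in the IGF-1 arrays. All 3 IGF-1 arrays lay above all 3 control arrays, and the control arrays spread more widely than the IGF-1 arrays. Means were 704 ± 67.3 and 976 ± 17.0 (SD, n = 3 each), a log2 difference of 0.47 ± 0.10 (SE, 95% interval 0.26 to 0.68, limma adjusted p = 0.0106), or 1.38-fold. The call was kept under each of the 17 alternative settings, with adjusted p of 0.000788 to 0.0412. All 17 read Mrps14 from this probe set, and averaging the probe sets of the gene was not among them. A dimmer probe set of the gene read 97.3, 88.0 and 93.0 in the control arrays and 91.2, 102 and 89.6 in the IGF-1 arrays, groups that overlapped, with a difference of 0.02 ± 0.12 (limma adjusted p = 0.930).

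Mrpl17 encodes a large subunit protein at the rim of the exit tunnel. Its brightest probe set (NCBI gene 27397, chromosome 7) gave 537, 509 and 444 in the control arrays and 800.2, 605 and 681 in the IGF-1 arrays. The groups did not overlap, and IGF-1 replicate 1 was the highest of the 6. Means were 497 ± 47.8 and 695 ± 98.3 (SD, n = 3 each), a difference of 0.47 ± 0.12 on the log2 scale (95% interval 0.20 to 0.73, limma adjusted p = 0.0269), or 1.38-fold. Without control replicate 2, control replicate 3, IGF-1 replicate 1 or IGF-1 replicate 3 the adjusted p was 0.0649 to 0.0800 and the call was lost. The suffix of this probe set marks probes shared by several transcripts of one gene, and the other probe set of Mrpl17 was too dim to be tested.

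Mrpl22 encodes another protein at the tunnel rim, whose bacterial counterpart lines the tunnel wall. Its brightest probe set (NCBI gene 216767, chromosome 11) gave 489, 513 and 473 in the control arrays and 586, 608 and 631 in the IGF-1 arrays. The groups did not overlap, and the arrays within each group lay close together. Means were 492 ± 20.1 and 608 ± 22.8 (SD, n = 3 each), a difference of 0.30 ± 0.09 (95% interval 0.10 to 0.49, limma adjusted p = 0.0466), or 1.23-fold. The call lay close to the threshold and was lost without any one of the 6 arrays (adjusted p 0.0668 to 0.150) and in 10 of 17 alternative settings in all.

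**Figure D1:**
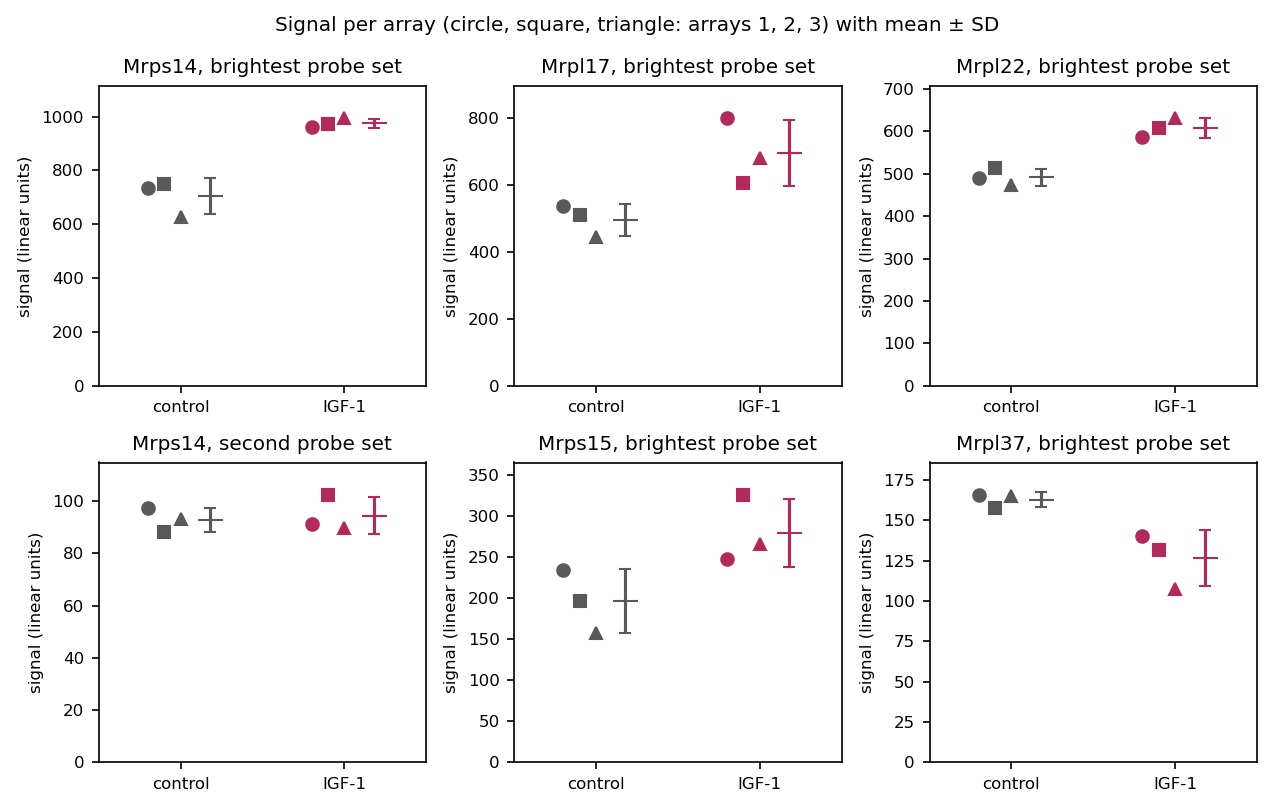
Signal in linear units of 6 probe sets in the 3 control and the 3 IGF-1 arrays, with the replicate as the marker shape and the mean ± SD beside the points. The brightest probe sets of Mrps14, Mrpl17, Mrpl22 and Mrps15 have all IGF-1 arrays above all control arrays, the second probe set of Mrps14 overlaps between groups (difference 0.02), and Mrpl37 has all IGF-1 arrays below.

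Promoters are shown for the called members that hold a motif of NRF1, a transcription factor known to bind many nuclear genes for mitochondrial proteins. Mrpl17 and Mrpl22 hold the NRF1 core GCATGCGC, searched on both strands from 250 bases before to 50 bases after the RefSeq gene start (build GRCm38.p6), and Mrps14 holds neither this core nor the ETS motif CCGGAAGT. The 250 bases before the start are printed in the direction of the gene, Mrpl17 from chr7:105811088-105811337 on the minus strand and Mrpl22 from chr11:58171414-58171663 on the plus strand, with the core in capitals as it reads on the opposite strand.
Mrpl17: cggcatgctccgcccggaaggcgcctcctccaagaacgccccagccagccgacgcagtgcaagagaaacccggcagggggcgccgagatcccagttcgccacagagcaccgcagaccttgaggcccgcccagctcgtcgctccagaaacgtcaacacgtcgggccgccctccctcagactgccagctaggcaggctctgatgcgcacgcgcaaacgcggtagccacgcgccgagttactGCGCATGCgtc
Mrpl22: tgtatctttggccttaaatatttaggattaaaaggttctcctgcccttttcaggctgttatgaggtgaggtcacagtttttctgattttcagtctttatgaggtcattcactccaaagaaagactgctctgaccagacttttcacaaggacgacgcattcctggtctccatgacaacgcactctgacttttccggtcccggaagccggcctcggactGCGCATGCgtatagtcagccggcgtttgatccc
The core ended 3 bases before the start in Mrpl17 and 25 bases before it in Mrpl22.

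Of the 74 members, 65 had a promoter in the table. The NRF1 core was found in 8 of them (12.3%), the large subunit genes Mrpl9, Mrpl10, Mrpl17, Mrpl22, Mrpl32, Mrpl33 and Mrpl39 and the small subunit gene Mrps18b. It was found in 7.03% of the 5674 genes tested on the arrays that had a promoter and in 3.93% of all 17491 protein-coding genes of the table. By subunit the share was 7 of 41 Mrpl genes (17.1%) and 1 of 24 Mrps genes (4.17%), and this difference was not tested. The ETS motif, which the factor GABP is known to bind, was found in 11 of 65 members (16.9%), in 10.7% of genes tested on the arrays and in 5.69% of protein-coding genes. Among related lists it was found in 9 of 39 cytosolic ribosomal protein genes (23.1%) and in 1 of 30 complex I genes (3.33%). Both motifs stood together in Mrpl33 alone among the members. The 7 tested members with the NRF1 core had a median log2 difference of 0.17 and the 57 without it 0.08, with quartiles of -0.04 to 0.27 and of -0.00 to 0.21. Carriers of the core thus include both called genes of the large subunit and also Mrpl32 (-0.19 ± 0.16) and Mrpl9 (-0.14 ± 0.09), which had lower means with IGF-1 without passing the test and turned to 0.07 and 0.12 on the scale of the hybridization controls described below. A match of letters is a description and does not show that the factor binds.

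Across the 73 tested members the log2 differences ran from -0.34 to 0.48 with a median of 0.11 and quartiles of -0.00 to 0.21, against a median of -0.01 over all genes tested. The mean was higher with IGF-1 in 53 members and lower in 20, so 72.6% were higher, against 48.7% of all genes. The share was 73.2% in 41 cytosolic ribosomal protein genes and 75.8% in 33 complex I subunits, both described below. It was thus not particular to the members. In 19 members (26.0%) all 3 IGF-1 arrays lay above all 3 control arrays, against 17.1% of all genes, and in 3 (4.11%) they lay below, against 18.2%. The wider gap to all genes was in the share lying below, and neither gap was tested. The share lying below was 0% in both the cytosolic and the complex I genes, and the share lying above was 7.32% and 33.3%. The median size of a difference, sign aside, was 0.147 for members and 0.176 for all genes, with median SE of 0.114 and 0.126. Of the 73 intervals at 95%, 54 lay inside ±0.5 on the log2 scale and 73 inside ±1.

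The size of these differences depends on how the arrays are scaled. Scaled instead to the 18 probe sets of the hybridization controls, RNAs that are added to the labelled sample before hybridization, with mean log2 signals of 8.03 to 8.26 in the control arrays and 7.81 to 7.93 in the IGF-1 arrays, all genes shifted upwards to a median of 0.23, and 22.8% of genes rose. On that scale 27 of 73 members rose, 0 fell, 69 had higher means and the median was 0.35. The member median exceeded that of all genes by 0.12 on both scales.

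**Figure D2:**
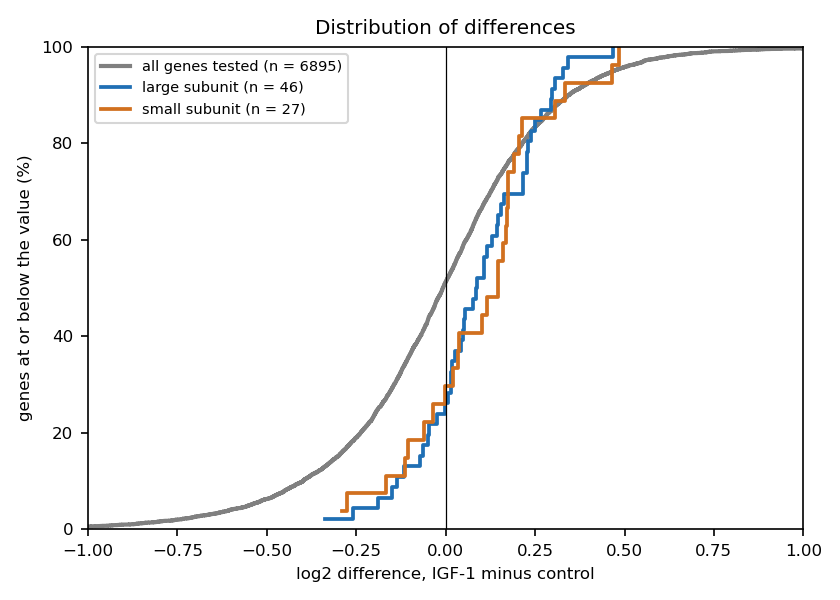
Cumulative share of genes (per cent, vertical axis) at or below a given log2 difference between IGF-1 and control (horizontal axis), for all 6895 genes tested, the 46 large subunit genes and the 27 small subunit genes. The curves of both subunits are narrower than that of all genes, and their medians of 0.09 and 0.15 lie right of the median of all genes at -0.01.

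By subunit, 2 of 46 Mrpl genes (4.35%) and 1 of 27 Mrps genes (3.70%) rose, against 7.05% of all genes. Means were higher with IGF-1 in 34 Mrpl genes and lower in 12, and higher in 19 Mrps genes and lower in 8. Groups lay apart upwards in 10 Mrpl (21.7%) and 9 Mrps genes (33.3%), against 17.1% of all genes. They lay apart downwards in 2 (4.35%) and 1 (3.70%), against 18.2%. The median difference was 0.09 for Mrpl genes and 0.15 for Mrps genes. Without IGF-1 replicate 2 the medians were 0.15 and 0.09, and without control replicate 2 the Mrps median was 0.08.

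The subunits were also compared array by array, as the median deviation of their genes from each gene's mean over the 6 arrays (log2). For Mrpl genes this was -0.03, -0.04 and -0.07 in the control arrays and 0.10, -0.01 and 0.08 in the IGF-1 arrays, and for Mrps genes -0.00, -0.09 and -0.05 against 0.05, 0.04 and 0.02. Neither subunit overlapped between groups, by a narrow margin in each case, and IGF-1 replicate 2 was the lowest IGF-1 array for Mrpl genes. Mrpl minus Mrps, in which the scaling of an array cancels, was -0.03, 0.05 and -0.02 in the control arrays and 0.05, -0.05 and 0.07 in the IGF-1 arrays. These overlapped, and the mean change of 0.02 was smaller than the SD between replicates of 0.055. The medians of the per-gene differences gave the opposite order, 0.06 less for Mrpl than for Mrps, which is slightly above that SD. That order was lost without control replicate 2 (0.0007 more for Mrpl) and turned without IGF-1 replicate 2 (0.06 more for Mrpl). A consistent order of the subunits was not detectable with 3 arrays per group.

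**Figure D3:**
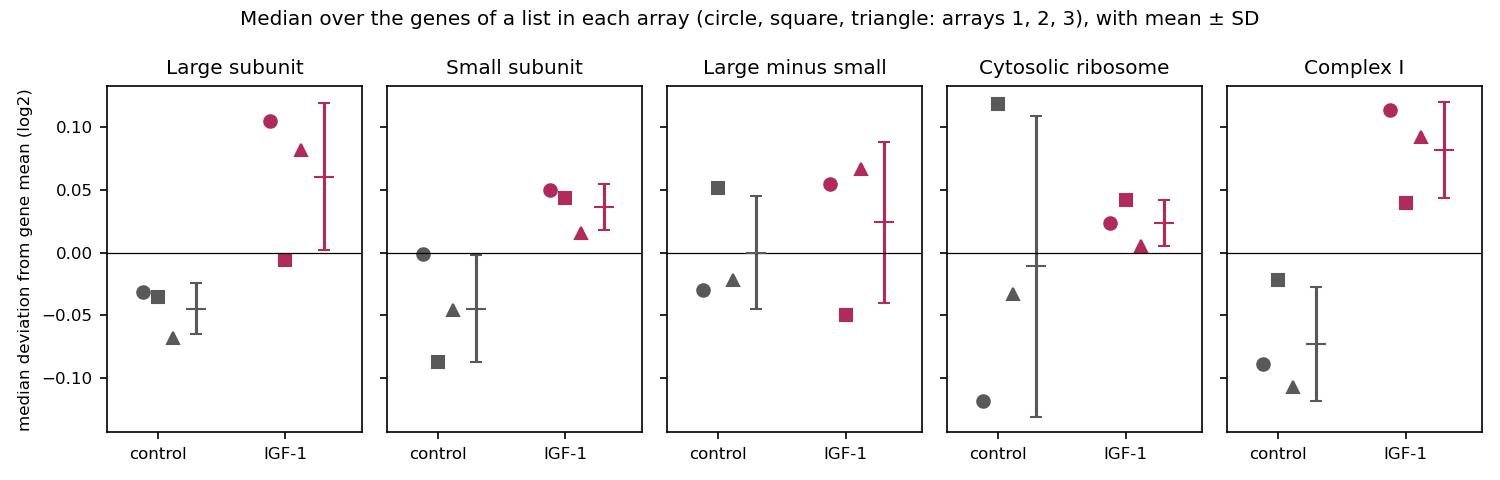
Median deviation from the gene mean (log2, vertical axis) of each list of genes in each of the 6 arrays, with the mean ± SD of each group. Large subunit, small subunit and complex I genes do not overlap between groups, while large minus small and the cytosolic ribosomal proteins do.

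Symbols do not always give the subunit. Mrps18a and Mrps30 are named for the small subunit and sit in the large, and Mrps36 is now known as a subunit of the 2-oxoglutarate dehydrogenase complex. Mrps18a read 289, 246 and 220.4 in the control arrays and 351, 249.6 and 260.0 in the IGF-1 arrays, with overlap and a difference of 0.17 ± 0.14 (limma adjusted p = 0.476). Mrps30 read 277, 243 and 231 against 269, 304 and 263, also with overlap, with 0.15 ± 0.11 (limma adjusted p = 0.409). Mrps36 read 135, 163 and 136 against 196, 188 and 164. Its lowest IGF-1 array was just above its highest control array, and the difference of 0.31 ± 0.12 did not pass (limma adjusted p = 0.114). With genes placed by position, the medians were 0.10 for 48 large subunit genes and 0.11 for 24 small subunit genes.

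Within the large subunit, the structural groups below were assembled from general knowledge with values in view, and are described without a test. The exit tunnel rim was represented by 6 genes (Mrpl17, Mrpl22, Mrpl23, Mrpl24, Mrpl45 and Mrpl47). Of these, 2 rose (33.3%, against 7.05% of all genes) and the median difference was 0.17. The 2 that rose are the only called Mrpl genes, and the group was assembled with values in view. Its count is therefore not a result about the tunnel rim. Mrpl23 read 869, 895 and 938 in the control arrays and 1095, 1037 and 1048 in the IGF-1 arrays, with no overlap and a difference of 0.23 ± 0.08 (limma adjusted p = 0.0897). Mrpl24 had a lower mean with IGF-1, with 574, 581 and 622 against 554, 408 and 526. All its IGF-1 arrays lay below the control arrays, replicate 2 by the widest margin, with a difference of -0.26 ± 0.12 (limma adjusted p = 0.169). On the hybridization-control scale Mrpl24 was at -0.01. Mrpl45, which helps to anchor the ribosome at the inner membrane, was at -0.00 ± 0.11, and Mrpl47 at 0.11 ± 0.11.

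The stalk recruits translation factors to the ribosome, and 0 of its 3 genes passed (median 0.24). Mrpl12, a stalk protein also reported to bind the mitochondrial RNA polymerase, read 246, 228 and 241 in the control arrays and 350.5, 278 and 285 in the IGF-1 arrays. The groups did not overlap, IGF-1 replicate 1 stood highest, and the difference was 0.33 ± 0.11 (limma adjusted p = 0.0767). Mrpl10, which anchors the stalk, was at 0.24 ± 0.13. Mrpl11, at the stalk base, read 327, 339.9 and 364 against 424, 285 and 343, with its highest and its lowest value both among the IGF-1 arrays, and a difference of 0.01 ± 0.13 (limma adjusted p = 0.960).

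The central protuberance is where the subunits meet above the transfer RNAs. All 6 genes (Mrpl18, Mrpl27, Mrpl38, Mrpl40, Mrpl46 and Mrpl48) had higher means with IGF-1, against 72.6% of members and 48.7% of all genes. Their median difference was 0.25, with 0 calls. This group too was assembled with values in view, so its count is not a result about the protuberance. Mrpl27, which in bacteria reaches into the peptidyl transferase centre, read 379, 404 and 299 in the control arrays and 457, 418 and 502 in the IGF-1 arrays, a difference of 0.34 ± 0.13 (limma adjusted p = 0.0943). Mrpl18, which in bacteria binds the 5S ribosomal RNA, read 184, 162 and 169 against 228, 198 and 220.3, a difference of 0.30 ± 0.11 (limma adjusted p = 0.0814). Neither gene overlapped between groups, nor did Mrpl40 at 0.27 ± 0.12, whereas Mrpl38, Mrpl46 and Mrpl48 did. The share lying above was thus 50%, against 26.0% of members and 17.1% of all genes.

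The lowest differences of the large subunit were those of Mrpl37, Mrpl24, Mrpl32 and Mrpl1. Mrpl37, a protein with no bacterial counterpart, read 166, 158 and 165 in the control arrays and 140.5, 132 and 107 in the IGF-1 arrays. Its control arrays lay close together and above every IGF-1 array, with a difference of -0.34 ± 0.12 (limma adjusted p = 0.089), or -0.10 on the hybridization-control scale. Mrpl32, whose maturation by the m-AAA protease is a known step of ribosome assembly, read 514, 649 and 449 against 440.2, 397 and 572, with overlap and a difference of -0.19 ± 0.16 (limma adjusted p = 0.465). Mrpl1, of the stalk near the exit site for transfer RNA, read 106, 130.4 and 127 against 130.1, 95.5 and 98.6, also with overlap, at -0.15 ± 0.14 (limma adjusted p = 0.520). On the hybridization-control scale Mrpl32 and Mrpl1 turned to 0.07 and 0.08.

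The other named genes of the large subunit did not pass the test. Mrpl3, of the ribosome core, was at 0.04 ± 0.11 (limma adjusted p = 0.822), Mrpl13 at 0.11 ± 0.10 (adjusted p = 0.530), and Mrpl44, a protein related to ribonuclease III, at 0.01 ± 0.14 (adjusted p = 0.984). Mrpl49, found in mitochondria without a bacterial counterpart, read 146, 157 and 141 in the control arrays and 196, 180.1 and 178 in the IGF-1 arrays, without overlap, at 0.29 ± 0.11 (limma adjusted p = 0.0876). Mrpl4 overlapped in the full data at 0.25 ± 0.15 (limma adjusted p = 0.302) and passed without IGF-1 replicate 1 (adjusted p = 0.0275). Mrpl33 was the only member under the filter, with 60.6, 37.6 and 51.3 in the control arrays and 61.2, 47.8 and 56.0 in the IGF-1 arrays, and was not tested.

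**Figure D4:**
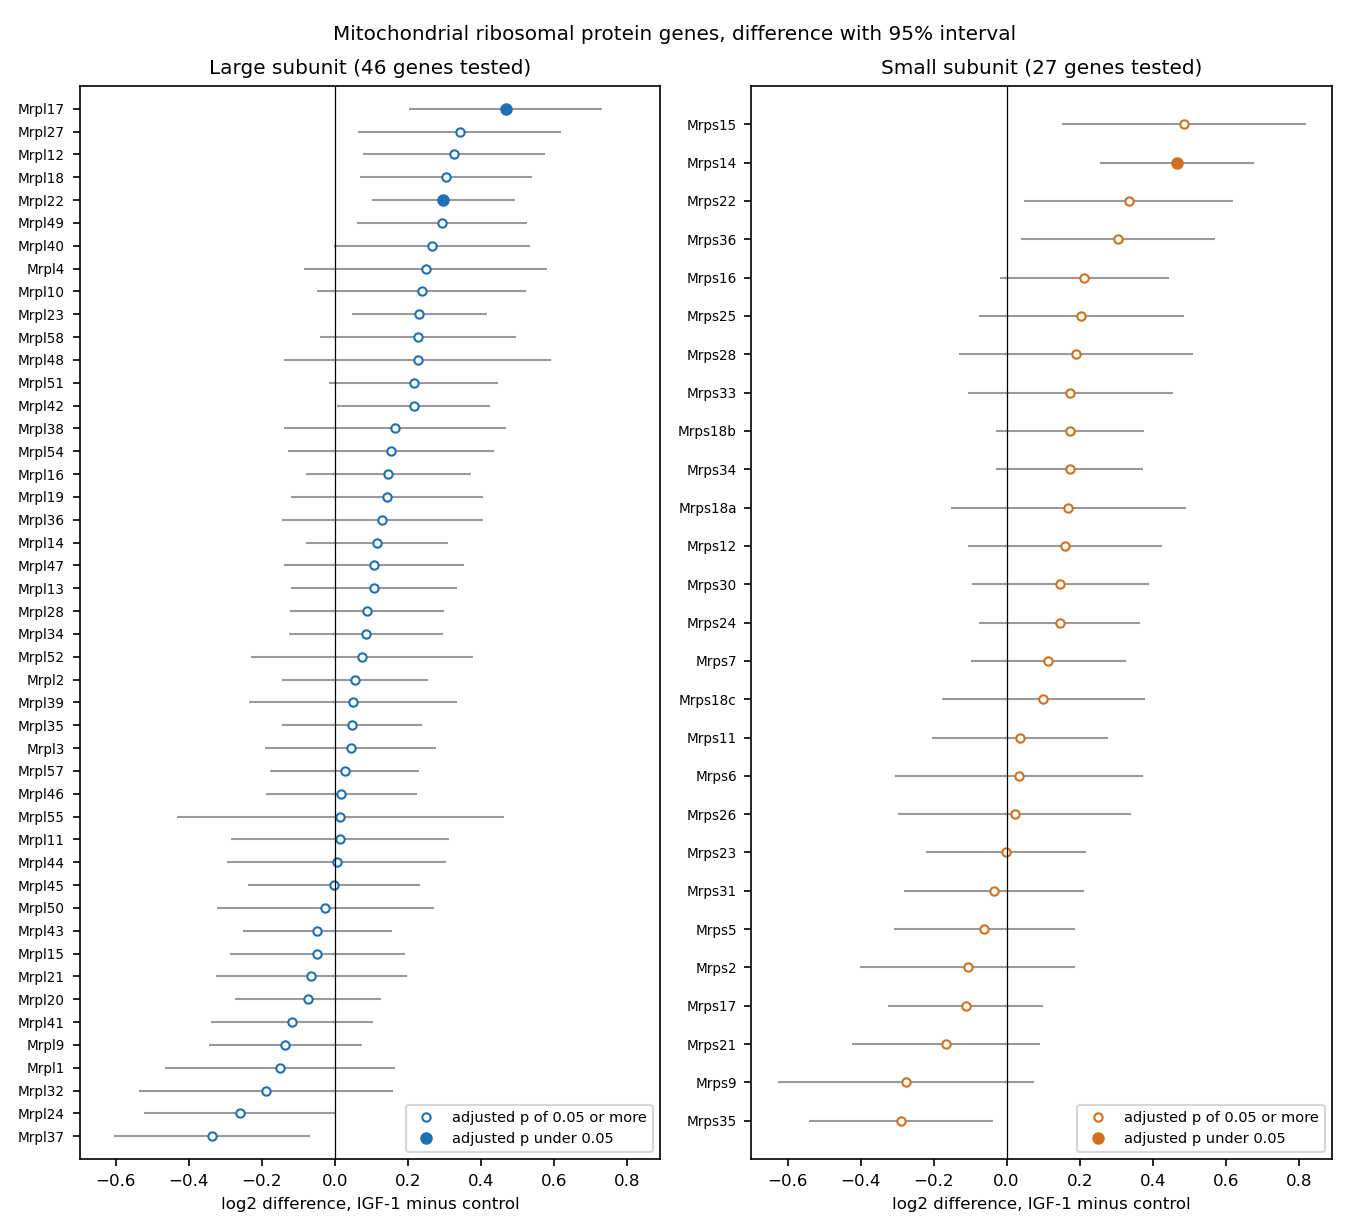
Log2 difference between IGF-1 and control arrays (horizontal axis) with its 95% interval for each tested gene of the large subunit (46 genes) and the small subunit (27 genes), ordered by difference. Filled points mark the 3 genes with an adjusted p under 0.05 (Mrpl17, Mrpl22 and Mrps14), and the lowest point is Mrpl37 at -0.34.

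The groups of the small subunit were assembled in the same way as those of the large and are likewise described without a test. In the small subunit, the head had 1 rise among 7 genes (Mrps14, 14.3% against 7.05% of all genes) with a median of 0.11. That share rests on Mrps14 alone and is not a result about the head. The head also held the lowest differences of the subunit. Mrps35 read 275, 215 and 249 in the control arrays and 204, 186 and 203 in the IGF-1 arrays, with every IGF-1 array below the control arrays, at -0.29 ± 0.11 (limma adjusted p = 0.116). Mrps9 read 92.3, 113 and 111 against 108, 74.2 and 73.5, where IGF-1 replicate 1 lay among the control arrays, at -0.28 ± 0.16 (limma adjusted p = 0.274). Both stood near 0 on the hybridization-control scale, at -0.05 each. Of the platform genes (Mrps6, Mrps11, Mrps18b, Mrps18c and Mrps21) 0 of 5 passed, with a median of 0.04. Mrps21 was the lowest of them, with 314, 318 and 373 against 264, 334 and 295 and a difference of -0.17 ± 0.12 (limma adjusted p = 0.381).

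The body and the decoding centre (Mrps5, Mrps12, Mrps15, Mrps16, Mrps17, Mrps22 and Mrps34) had 0 calls among 7 genes and a median of 0.17. Mrps15, near the interface of the subunits, had the highest difference of all members. It read 235, 197 and 158 in the control arrays and 247, 327 and 266 in the IGF-1 arrays, means of 197 ± 38.7 and 280.0 ± 41.3 (SD, n = 3 each). The groups did not overlap, but control replicate 1 came close to IGF-1 replicate 1, and the difference of 0.48 ± 0.15 stopped just short of the threshold (limma adjusted p = 0.0547). Without control replicate 1 it passed (0.61, adjusted p = 0.0276). The other probe set of Mrps15 read 205, 192 and 212 against 211, 169 and 202, with overlap and a difference of -0.07 ± 0.11 (limma adjusted p = 0.745).

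Mrps22, a mitochondria-specific protein mutated in a human disorder of mitochondrial translation, read 189, 135 and 151 in the control arrays and 198, 213 and 194 in the IGF-1 arrays. All IGF-1 arrays were above the control arrays, control replicate 1 being close to them, with a difference of 0.33 ± 0.13 (limma adjusted p = 0.108), which passed without control replicate 1 (0.46, adjusted p = 0.0359). Mrps34, another mitochondria-specific protein, read 419, 391 and 387 against 465, 431 and 459, without overlap, at 0.17 ± 0.09 (limma adjusted p = 0.234). Mrps12, the decoding centre protein whose bacterial counterpart carries streptomycin resistance mutations, was at 0.16 ± 0.12 (limma adjusted p = 0.415), and Mrps16 at 0.21 ± 0.10 (limma adjusted p = 0.201). Mrps17 was at -0.11 ± 0.10 (limma adjusted p = 0.473) and Mrps5, at the messenger RNA entry, at -0.06 ± 0.11 (limma adjusted p = 0.763). On the hybridization-control scale Mrps17, Mrps5 and Mrps21 turned to 0.14, 0.17 and 0.08.

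Members with a counterpart in the bacterial ribosome and those added in mitochondria were set side by side, with Mrps36 left out. Of 45 tested genes with a counterpart, 3 rose (6.67%, near the 7.05% of all genes) and the median was 0.11. Of 27 without one, 0 rose and the median was 0.08. A difference between these groups was not tested.

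Probe sets of the same gene did not always give the same sign or call. Of the 127 probe sets, 103 were tested and 3 called. In the 21 genes with several tested probe sets, the lowest and the highest log2 difference lay a median of 0.155 apart. The median SE of a member's difference was 0.114. The signs were the same in 12 genes and differed in 9 (Mrpl3, Mrpl15, Mrpl28, Mrpl39, Mrpl44, Mrpl52, Mrps2, Mrps9 and Mrps15). The call differed in 1 (Mrps14), the only called gene with several tested probe sets. The spread was widest in Mrps15, at 0.55. The 4 probe sets of Mrps9 gave -0.28, -0.15, -0.03 and 0.17. The 3 tested probe sets of Mrpl11 gave 0.01, 0.05 and 0.42, the highest of them not called (limma adjusted p = 0.155). A single probe set represented 41 genes, and 3 further probe sets whose annotation joins a second gene to the member were left out.

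**Figure D5:**
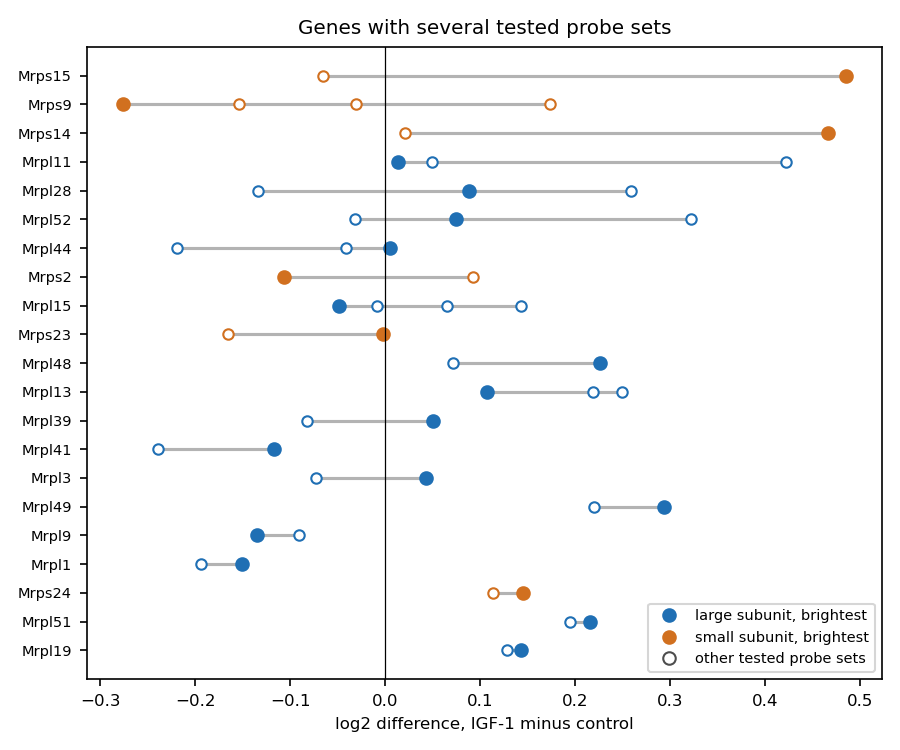
Log2 difference between IGF-1 and control arrays (horizontal axis) of every tested probe set of the 21 genes with several, with the brightest probe set filled. The points span 0 in 9 genes, and the widest span is that of Mrps15 at 0.55.

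Related gene lists were read in the same way. Of 41 cytosolic ribosomal protein genes tested, 1 rose (2.44%, against 7.05% of all genes) and 0 fell, with a median of 0.04. Per-array medians of these genes overlapped between groups. Scaled to the hybridization controls, 28 of them rose, with a median of 0.30, and with quantile normalization 0 rose, with a median of 0.0046. Without control replicate 1 the median turned to -0.0089, and it was 0.11 without control replicate 2, 0.024 without control replicate 3 and 0.022 without IGF-1 replicate 2. Complex I is the largest respiratory complex, and the mitochondrial ribosome makes only some of its core subunits. Of 33 of its subunits with Nduf symbols, 4 rose (12.1%, against 7.05% of all genes) and 0 fell, with a median of 0.13. With the scaling to hybridization controls 19 of them rose, with a median of 0.39, and with quantile normalization 2 rose. The control arrays differed from one another more for the cytosolic genes, with an SD of 0.120, than for Mrpl genes (0.020) or Mrps genes (0.043).

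Of 4 mitochondrial ribosomal proteins that carry other symbols, 1 rose (25%, against 7.05% of all genes). Gadd45gip1, a large subunit protein also called CRIF1, read 358, 346 and 297 in the control arrays and 462, 524 and 569.5 in the IGF-1 arrays. The groups were well apart, with a difference of 0.61 ± 0.11 (limma adjusted p = 0.00656), or 1.53-fold, more than any member, and the call was kept in all 17 alternative settings. Dap3, a GTP-binding small subunit protein, read 309, 308 and 257 against 356, 358 and 429.9 without overlap, at 0.37 ± 0.12 (limma adjusted p = 0.0544). Chchd1, of the small subunit, was at 0.38 ± 0.12 (limma adjusted p = 0.0632), with 1 IGF-1 array under the highest control array, and Ptcd3, at the messenger RNA entry, at -0.25 ± 0.14 (limma adjusted p = 0.267).

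Lists of genes that act on the mitochondrial ribosome, or on mitochondrial DNA and its transcription, without coding for ribosomal proteins had medians on the other side of 0. Of 8 translation factors and partners, 0 passed and the median was -0.07. Means were higher with IGF-1 in 2 of them (25%, against 48.7% of all genes) and lower in 6. Of 16 assembly and ribosomal RNA modification genes, 0 passed, 13 had lower means and 3 higher (18.8%), and the median was -0.08. Of 14 genes of mitochondrial DNA copying and transcription, 1 fell (7.14%, near the 8.05% of all genes), 0 rose and the median was -0.06. On the hybridization-control scale these medians turned to 0.15, 0.15 and 0.17, each still below the 0.35 of the members and below the 0.23 of all genes. The gene that fell was Ssbp1, the single-strand binding protein of mitochondrial DNA, which read 933, 792 and 977 in the control arrays and 591, 499 and 662 in the IGF-1 arrays. All IGF-1 arrays lay below all control arrays, at -0.62 ± 0.12 (limma adjusted p = 0.00927). On the hybridization-control scale its difference was -0.36 and did not pass (adjusted p = 0.104).

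Of 9 regulators of nuclear genes for mitochondrial proteins, 0 rose and 1 fell (11.1%, against 8.05% of all genes). Means were higher with IGF-1 in 3 and lower in 6, and the median was -0.13. On the hybridization-control scale 1 rose, 1 fell and the median was 0.12. Myc, a transcription factor known to drive ribosome and mitochondrial genes, read 858, 684 and 716 in the control arrays and 329.9, 311 and 284 in the IGF-1 arrays. The groups were far apart, at -1.24 ± 0.11 (limma adjusted p = 0.000141). Nrf1 was at 0.07 ± 0.12 (limma adjusted p = 0.728) and Gabpa, a subunit of GABP, at -0.14 ± 0.11 (limma adjusted p = 0.443). Nrip1, with all IGF-1 arrays below the control arrays, was at -0.52 ± 0.17 (limma adjusted p = 0.0722). Mtor, with overlap, was at -0.36 ± 0.15 (limma adjusted p = 0.128). The coactivator genes Ppargc1a and Ppargc1b were below the filter and were not tested.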

How the data were processed

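RNA of 6 samples (3 control, 3 IGF-1) was hybridized to 1-colour arrays. Per the labels' protocols, oligo-dT-primed RNA was transcribed into biotinylated cRNA. The authors deposited 1 linear signal intensity for each probe set in each array. The submitters' processing notes name MAS5 and GCOS as the software, and neither its versions nor its scaling target were given in the sources used here. A mean trimmed by 2% at each end was the same in all arrays, so every difference is relative to total signal. The number of arrays limits the precision.

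Genes were named from the platform annotation (20380 probe sets with 1 symbol, 691 with several, 1555 unlisted), and all 74 member identifiers and symbols matched RefSeq (GRCm38.p6). The test ran on log2(signal + 15.57), with the 25th percentile of the signals as pseudocount, in probe sets with a mean above 53.61, the median, without the 64 control probe sets. limma 3.58.1 in R 4.3.3 (lmFit, eBayes with an intensity trend, two-sided) compared the groups, with Benjamini-Hochberg adjustment and a threshold of 0.05. The procedure was tested on simulated data. Tables and figures used Python 3.11.15, pandas 2.3.3, numpy 2.4.6 and matplotlib 3.10.9.

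Alternatives were another pseudocount, filter, normalization, eBayes setting, array weights, leaving out probe sets whose suffix marks probes shared by several transcripts (of one gene or of several), averaging the probe sets of a gene, a replicate block, leaving out each array and placing genes by position. Named members were those past the threshold, the 4 highest and 4 lowest of each subunit, those under the filter, those whose probe sets disagree, and a set chosen for role. Mrpl23, Mrpl49, Mrpl40, Mrpl10, Mrpl45, Mrpl47, Mrpl9 and Mrpl4, the 3 related genes Dap3, Chchd1 and Ptcd3, and the regulators other than Myc were named after their values were seen. Members and lists were chosen with earlier results of these data known.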

Additional observations from a re-analysis of the deposited data

How the results depend on the processing

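The 3 calls among the members depended on the settings, and the sign of their median did not. With no filter 1 member was called (Mrps14) and 946 probe sets in all, against 1709 in the test reported above. With arrays scaled to the hybridization controls there were 27 and 2831, 90.5% of called genes rose instead of 46.7%, and the member median moved from 0.11 to 0.35. Without probe sets whose suffix marks probes shared by several transcripts, of one gene or of several, 1116 probe sets were called and Mrpl17 was not tested. Leaving out 1 array at a time gave 1 to 4 members, 897 to 1451 probe sets and a member median of 0.08 to 0.11. With no filter Mrpl17 had an adjusted p of 0.0703 and Mrpl22 of 0.0591, and Mrpl22 was also lost with quantile normalization (0.0540) and without an intensity trend (0.0775). Mrps15 passed with a filter at the 70th percentile (0.0461) and with array weights (0.0382). With the replicate block 1732 probe sets and 2 members (Mrpl17 and Mrps14) were called, Mrpl22 having an adjusted p of 0.0681. Deviations of same-numbered replicates correlated at 0.120, -0.033 and 0.127, and those of differently numbered replicates at -0.149 to 0.029. Same-numbered replicates 1 and 3 thus stood highest, but all values were low. The test reported above did not take the numbers as pairs. On the hybridization-control scale the members with lower means went from 20 to 4, and of those named for role or rank Mrpl1 was at 0.0788, Mrpl32 at 0.0654, Mrps17 at 0.138, Mrps21 at 0.0819 and Mrps5 at 0.171. With array weights Mrpl11 was at -0.0272. Without the probe sets of shared probes Mrpl44 was at -0.219 and Mrps9 at 0.173, each read from another probe set. Leaving out 1 array gave -0.127 to 0.147 for Mrpl11, -0.109 to 0.0937 for Mrpl44 and -0.01 to 0.06 for large minus small subunit, which stayed at 0.01 to 0.03 under the other alternatives. The cause of these shifts was not tested beyond the change of scale, genes or arrays that each alternative makes. With 3 arrays per group, 19 of 73 members had 95% intervals reaching beyond ±0.5, so differences of that size remain possible for them.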
